A study of Mus musculus with 2 samples.

Results

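The genes described here are 8 of the 32285 listed in the count matrices: Dppa2, Dppa3, Dppa4 and Dppa5a, the X-linked homeobox genes Rhox5, Rhox6 and Rhox9, and Trap1a. They were chosen by symbol as genes known to be silenced when naive pluripotent cells become primed for differentiation, and they were followed in 19294 cells. The cells came from mouse gastruloids, aggregates of embryonic stem cells that begin to form a body axis in culture. The groups differed in genotype: R1 embryonic stem cells were either wild type or double mutant for Sp5 and Sp8, which encode transcription factors of the Wnt response. Both groups started from about 300 cells in serum-free N2B27 medium, were given 3 µM CHIR, which blocks GSK3 and so turns on the Wnt pathway, after 2 days, and were pooled and collected 12 hours later, at day 2.5. Each genotype is 1 single-cell library with no replicate, the labels do not say how many mutant clones were used.

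In the mouse, the naive pluripotent state of the early epiblast has little DNA methylation. As the epiblast is primed after implantation, Dnmt3a and Dnmt3b methylate the genome and many promoters of germline and placental genes are shut off. Dppa2 and Dppa4 are partner proteins that bind chromatin and keep a set of promoters free of methylation, and Dppa3 (also called Stella) protects the genome of the egg from changes in methylation and marks germ cells. Dppa5a encodes a KH-domain RNA-binding protein, the Rhox genes form an X-linked cluster active in testis, ovary and placenta, and Trap1a encodes the tumour rejection antigen P1A.

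The 8 genes lie at 5 places in the genome (GENCODE M21, GRCm38), and all are protein-coding. Dppa4 (chr16:48283733-48294237) and Dppa2 (chr16:48303908-48319723) are neighbours on the plus strand with 9671 bases between them. Rhox5 (chrX:37804842-37808876) and Rhox6 (chrX:37826910-37829857) lie on the plus strand and Rhox9 (chrX:37899097-37901770) on the minus strand, within 96928 bases. Trap1a (chrX:139333683-139338169, plus) is elsewhere on the X chromosome, Dppa3 is at chr6:122626410-122630272 (plus) and Dppa5a at chr9:78367052-78368177 (minus). Trap1a overlaps Platr21 on the opposite strand, which had 42 and 53 UMIs in the 2 libraries. Whether counting used strand is not given in the sources used here. In the last 500 bases of the Dppa5a transcript, 10.7% of the 90-base words also occur in other annotated genes, such as Gm6798, so a part of its reads could be split. The other 7 genes shared no such word.

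Promoter sequences from RefSeq (GRCm38.p6) were at hand for 2 of the 8 genes, Rhox5 and Trap1a. They are shown because CpG sites are what DNA methylation acts on. The 250 bases upstream of each RefSeq start are given 5′ to 3′ on the plus strand, with CpG sites in capitals. They are chrX:37754358-37754607 for Rhox5 and chrX:139333433-139333682 for Trap1a. The RefSeq start of Rhox5 lies far upstream of the GENCODE one at 37804842, so its window does not adjoin the GENCODE gene. Which start these cells use was not tested.
Rhox5: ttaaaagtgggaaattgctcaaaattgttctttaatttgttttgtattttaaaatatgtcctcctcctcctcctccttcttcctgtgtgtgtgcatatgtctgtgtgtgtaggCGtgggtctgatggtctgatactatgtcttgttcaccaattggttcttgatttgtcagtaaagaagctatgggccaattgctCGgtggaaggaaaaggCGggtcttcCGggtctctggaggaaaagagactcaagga
Trap1a: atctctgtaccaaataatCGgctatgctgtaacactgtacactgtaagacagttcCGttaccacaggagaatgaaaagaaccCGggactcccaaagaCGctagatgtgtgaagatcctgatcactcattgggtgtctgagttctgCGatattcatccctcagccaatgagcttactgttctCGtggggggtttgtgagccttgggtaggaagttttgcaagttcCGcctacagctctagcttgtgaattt
The Rhox5 window holds 4 CpG sites and the Trap1a window 7, against a median of 6.0 over 32851 promoters. Neither holds CACGTG, the E-box bound by Mga and Max, or TCCCGC, the E2f6 motif, on either strand; 6.02% and 16.9% of all promoters do.

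Counts are UMIs, molecular tags that let each captured transcript be counted once, and a level is given as CPM, the count of a gene scaled to 1000000 UMIs of the same cells. Paired values stand in the order library labelled wild type, then library labelled double knockout. After the filters, 8707 and 10587 cells with 97157331 and 97644169 UMIs remained, with medians of 10571 and 8637 UMIs and 3275 and 2884 genes a cell. The labels give medians of 5333 and 5398 genes, which the deposited counts do not give; the reason was not tested. The targeted genes went against the labels: Sp5 was at 109.1 and 478.7 CPM and Sp8 at 20.8 and 40.1 CPM, both higher in the library labelled double knockout. The 3′ tags check the labels only where the mutation removes them, which the labels do not state. Of 19294 cell barcodes, 27 occurred in both libraries. Intervals are 95% and cover counting error only. With 1 library a genotype there is no test.

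The 8 genes fell into a widely detected set, Dppa2, Dppa4, Dppa5a, Rhox5 and Trap1a, and a set of rare transcripts, Dppa3, Rhox6 and Rhox9. Dppa5a was detected in the most cells, 51.1% and 46.2%, and Dppa4 was found in 20.7% and 18.9%. Trap1a was found in 14.3% and 12.9%, Rhox5 in 13.7% and 13.8%, and Dppa2 in 9.45% and 7.46%. Dppa3 was seen in 1.14% and 1.45% of cells, Rhox6 in 0.712% and 0.557%, and Rhox9 in 0.390% and 0.378%.

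Because the libraries differ in depth, every cell was also thinned to 2500 UMIs, and the shares then lay close together between the libraries. Dppa5a was found in 20.9% (20.1 to 21.8) and 21.2% (20.5 to 22.03) of thinned cells, Rhox5 in 6.80% (6.28 to 7.35) and 7.35% (6.86 to 7.86). Dppa4 stood at 6.29% and 6.36%, Trap1a at 5.79% and 5.50%, and Dppa2 at 2.41% and 2.39%. The rare transcripts were in 0.459% and 0.482% (Dppa3), 0.207% and 0.198% (Rhox6) and 0.115% and 0.123% (Rhox9) of thinned cells. For each of the 8 genes, the intervals of the 2 libraries overlapped.

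Free RNA sets a floor under such shares. Barcodes with 10 to 100 UMIs, taken as empty, carried Dppa5a at 133.1 and 144.0 CPM, Rhox5 at 51.3 and 76.7, Trap1a at 34.4 and 28.7, Dppa4 at 21.7 and 29.1 and Dppa2 at 8.59 and 8.66 CPM. Dppa3 was there at 2.53 and 5.90 CPM, Rhox6 at 2.27 and 1.97 and Rhox9 at 1.52 and 1.57. These levels are similar to or above those over all cells given further on, so a single UMI need not come from the cell it is counted in. Among the named cell groups described below, the primitive-streak-like cells (median 12266 and 9312 UMIs) had the lowest or near-lowest shares. Dppa5a was in 10.9% and 9.52% of them after thinning, Dppa4 in 2.08% and 2.73%, Trap1a in 2.08% and 2.87%, and Dppa2 in 0.521% and 0.630%. Rhox5 was in 3.39% and 2.94%. Dppa3 had 0 and 3 UMIs in them before thinning. These cells were taken for their low shares, so the higher shares of the 5 widely detected genes over all cells follow from that choice. The plan had named the neural-like cells as background. After thinning, Dppa5a (5.39% and 8.37%) and Rhox5 (4.98% and 5.18%) were in smaller shares of them than of all cells. Trap1a (18.7% and 14.3%) was in larger shares, and Dppa2 and Dppa4 differed in direction between the libraries. The part of free RNA in the levels was not tested.

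How unevenly a transcript was spread differed from gene to gene. The UMIs of Dppa4 and Dppa5a were spread widely: 50% of them lay in 561 and 686 cells for Dppa4 and in 698 and 802 cells for Dppa5a. Rhox5 was detected in about as many cells as Trap1a but was more uneven, with 50% of its UMIs in 195 and 256 cells against 280 and 320 for Trap1a. For Rhox5, 156 and 134 cells had 10 UMIs or more, while for Trap1a 5 and 4 cells did. The rare transcripts were held by few cells: 15 and 33 cells carried 50% of the Dppa3 UMIs, 4 and 3 those of Rhox6, and 3 and 2 those of Rhox9.

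**Figure D1:**
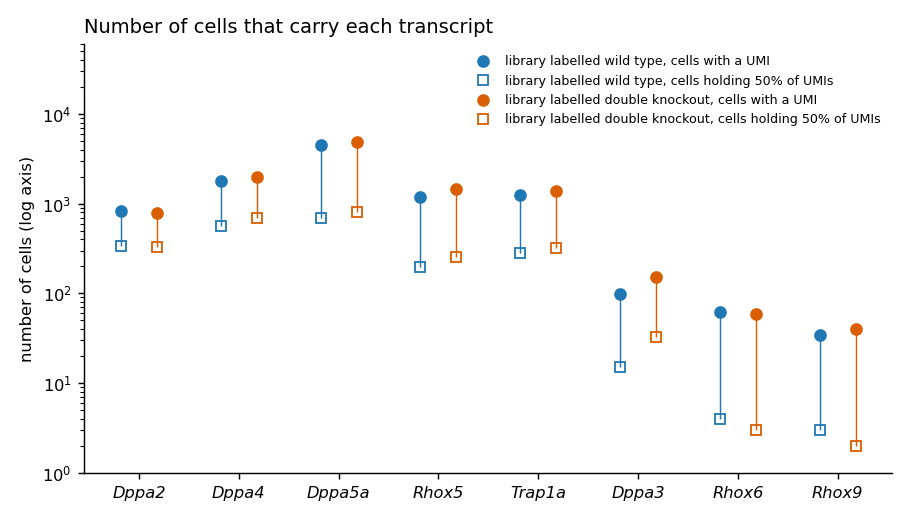
Number of cells with at least 1 UMI of each gene (filled circles) and number of cells that together hold 50% of its UMIs (open squares) on a log axis, in the library labelled wild type (blue) and the library labelled double knockout (orange). Dppa3, Rhox6 and Rhox9 are detected in 34 to 153 cells, and 2 to 33 of these hold 50% of the UMIs.

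Cells of both libraries were clustered together without using any Dppa or Rhox gene or Trap1a. Of the 9 clusters, 4 could be named from marker genes: naive-pluripotent-like (67 and 68 cells), primitive-streak-like (384 and 1428), neural-like (241 and 251) and extraembryonic-endoderm-like (16 and 16). The other clusters are called by their leading genes. Cluster 1 (2568 and 4858 cells), which held the most UMIs of the widely detected genes, is led by Rhox5, Usp26 and Tdgf1, the last encoding a Nodal co-receptor. Cluster 2 (3551 and 2975 cells) is led by Irx3, Irx5 and Gbx2, cluster 4 (1514 and 559 cells) by Nfib and Cdx2, cluster 0 (40 and 76 cells) by Aqp3 and Tbx3 with the stress gene Ddit3, and cluster 5 (326 and 356 cells) has low depth. These contrasts describe cells of the libraries that were clustered and are not tests.

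The naive-pluripotent-like cells, which make up 0.769% and 0.642% of cells, had more of each of the 8 genes than the pooled other cells, for Rhox6 and Rhox9 mainly through 8 cells described further on. The cluster was named with both libraries pooled, where 15 of the 16 naive markers of the fixed list were 1.5-fold or more higher than elsewhere. Taken separately, 11 of 12 and 8 of 11 markers with a mean of at least 1 CPM were at least 2-fold higher, among them Zfp42 (486.3 and 347.3 CPM) and Klf2 (461.0 and 426.1 CPM). Nanog was lower, at 58.4 and 65.0 CPM against 116.6 and 129.2 CPM. Each of the 8 genes was at least 2-fold higher there than in all other cells in both libraries, against 10.1% and 10.6% of all genes with a mean of at least 1 CPM. For Rhox6 and Rhox9 nothing is read from this: they reach that minimum only through the naive-like cluster, and Rhox9 with the double-knockout label, at 0.86 CPM, does not reach it. The log2 ratios over the other cells ran from 2.31 (Dppa4) to 9.19 (Rhox9) with the wild-type label, and from 1.77 (Rhox5) to 7.74 (Rhox6) with the double-knockout label.

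Dppa2 and Dppa4, the chromatin partners, were at 55.3 (38.5 to 76.8) and 80.4 (59.1 to 107) CPM and at 123.1 and 162.6 CPM in the naive-like cells. Elsewhere they were at 9.68 and 9.03 CPM and at 24.98 and 26.18 CPM. Outside the naive-like cells Dppa4 was at 58.0 and 55.3 CPM in the small cluster 0, at 39.1 and 38.5 CPM in cluster 1 and at 32.0 and 34.4 CPM in cluster 4, beside 21.7 and 29.1 CPM in empty barcodes. Both genes were lowest, among clusters of over 100 cells, in the streak-like cells and cluster 2. Dppa2 was there at 2.02 and 2.55 CPM (streak-like) and 4.91 and 3.92 CPM (cluster 2), and Dppa4 at 10.7 and 11.3 CPM and 12.96 and 10.6 CPM. In the few extraembryonic-endoderm-like cells 1 and 2 UMIs of Dppa2 and 2 and 0 of Dppa4 were seen. For Dppa2 that is 5.25 (0.13 to 29.3) and 12.3 (1.49 to 44.4) CPM, wide intervals that include its level elsewhere.

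Dppa5a, the RNA-binding protein gene, stood at 1726 (1625 to 1831) and 1768 (1661 to 1879) CPM in naive-like cells. The other cells were at 122.2 and 122.8 CPM. It was also high in the extraembryonic-endoderm-like cells (651.0 and 534.7 CPM). Cluster 1 was at 230.2 and 186.4 CPM and the low-depth cluster 5 at 174.1 and 201.5 CPM. The low end was the neural-like cells at 29.2 and 43.2 CPM, with the streak-like cells at 47.1 and 44.1 and cluster 2 at 54.6 and 40.8. In the library labelled wild type all naive-like cells but 7 of 67 carried a Dppa5a UMI, and in the library labelled double knockout all but 2 of 68 did.

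Rhox5 had its highest level not in naive-like but in extraembryonic-endoderm-like cells, at 892.5 (763 to 1037) and 897.3 (758 to 1055) CPM. That cluster holds 16 cells in each library, and 12 of 16 thinned cells carried a Rhox5 UMI in both. Naive-like cells had 396.3 and 184.8 CPM, from 30 and 20 cells with up to 22 and 18 UMIs each. In cluster 1 Rhox5 was at 106.2 and 86.2 CPM, in neural-like cells at 40.0 and 59.5, and in cluster 4, led by Nfib and Cdx2, at 8.82 and 16.2. Dppa5a was at 108.6 and 184.7 CPM in cluster 4.

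Trap1a, the P1A antigen gene, was also high in neural-like cells. It was at 315.0 and 252.0 CPM in extraembryonic-endoderm-like cells, 252.6 and 227.6 CPM in naive-like cells and 91.2 (79.1 to 105) and 69.6 (58.5 to 82.3) CPM in neural-like cells. The streak-like cells were at 10.5 and 14.5 CPM and cluster 2 at 15.6 and 17.7 CPM. Of thinned neural-like cells (median 8644 and 7492 UMIs before thinning), 18.7% and 14.3% carried a Trap1a UMI, against 5.39% and 8.37% for Dppa5a, whose level over the whole library is higher. Cluster 6, the neural-like cells, is led by Ebf3, Pou3f2 and Insm1, transcription factor genes of neurons.

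Dppa3, the germ cell and egg factor, stood at 142.1 (114 to 175) and 166.0 (135 to 202) CPM in naive-like cells and at 1.04 and 1.59 CPM in all others. The naive-like cells held 47.4% and 38.6% of all Dppa3 UMIs, and cluster 1 held 41.1% and 51.8% at only 2.50 and 2.75 CPM. No Dppa3 UMI was seen in the extraembryonic-endoderm-like cells of either library (upper limits of 19.4 and 22.7 CPM), where Rhox5, Dppa5a and Trap1a were high. Cells with 5 or more Dppa3 UMIs numbered 8 and 9, of which 6 and 8 were naive-like. In cluster 1, 57 and 103 cells carried a Dppa3 UMI, 8 and 18 of them more than 1.

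Rhox6 and Rhox9, known as placental homeobox genes, were at 213.1 and 112.9 CPM and at 153.1 and 71.9 CPM in the naive-like cluster, against 0.549 and 0.525 CPM and 0.259 and 0.433 CPM elsewhere. The cluster held 71.8% and 56.4% of Rhox6 UMIs and 79.5% and 50.0% of Rhox9 UMIs. Rhox6 was also at 36.7 and 43.0 CPM in extraembryonic-endoderm-like cells, from 7 UMIs in each library. Rhox9 had 0 and 2 UMIs there. In the remaining clusters neither gene exceeded 2.25 CPM.

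**Figure D2:**
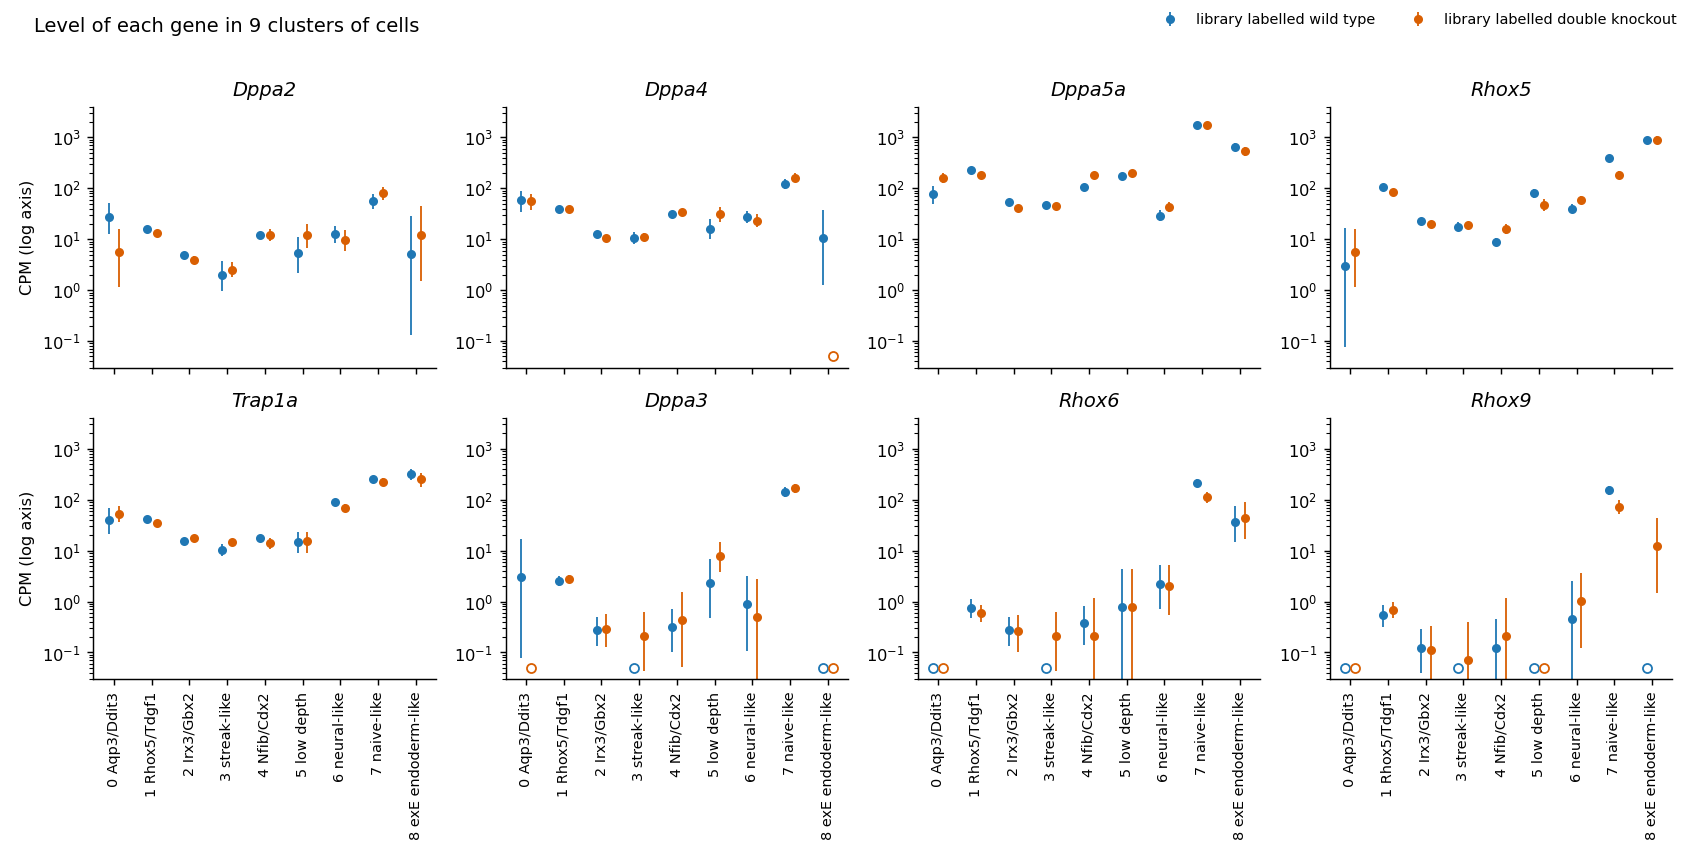
Level of each gene (CPM, log axis) in the 9 clusters, with exact 95% Poisson intervals, in the library labelled wild type (blue) and the library labelled double knockout (orange); open circles at the foot mark clusters with 0 UMIs. All genes are higher in the naive-like cluster 7 than in the pooled other cells. Rhox5, Dppa5a, Trap1a and, from few UMIs, Rhox6 are also higher in the extraembryonic-endoderm-like cluster 8, and Trap1a also in the neural-like cluster 6.

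The share of cells with a transcript was also larger the more naive markers the same cell held, counted among the thinned UMIs without any clustering. Dppa5a was found in 17.7% and 18.2% of cells with 0 naive markers, in 27.4% and 26.6% of cells with 2, and in 38.6% and 27.0% of cells with 3. With 5 or more markers it was found in 7 of 8 and 9 of 13 cells. Trap1a went from 4.97% and 4.66% of cells with 0 markers to 14.04% and 11.7% with 3, and to 5 of 8 and 6 of 13 cells with 5 or more. Rhox5 went from 5.81% and 6.30% to 14.04% and 13.5%, and Dppa3 from 0.221% and 0.298% to 4.39% and 3.60%. The bins of 4 and of 5 or more markers hold 8 to 17 cells each, so the trend rests on the bins of 0 to 3. Over all cells, Nanog (116.2 and 128.8 CPM) and Tdh (101.5 and 98.1 CPM) made up most of the markers' summed 297.3 and 291.4 CPM. Nanog was lower in naive-like cells. Both were higher in cluster 1 than elsewhere, by log2 ratios of 0.59 and 0.32 (Nanog) and 0.72 and 0.78 (Tdh). A larger marker count is therefore not a sign of the naive state alone, and the part of cluster 1 in the trend was not tested. In the library labelled double knockout, Dppa5a hardly differed between 2 and 3 markers.

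The high Rhox6 and Rhox9 levels of the naive-like cluster rested on 8 cells. Cells with 5 or more UMIs of Rhox6 and Rhox9 together, a limit set after the counts were seen, numbered 6 and 2, all in that cluster. They held 222 of 310 and 97 of 201 UMIs of these genes. Of the other cells with either gene, 80 and 87 had a single UMI and 3 and 7 had 2 to 4. Without the 8 cells, the naive-like cluster had Rhox6 at 12.3 and 19.5 CPM and Rhox9 at 5.27 CPM and 0 UMIs.

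In 7 of these 8 cells (6 and 1), the other transcripts were not those of naive cells. They held 7 to 56 Krt8 and 1 to 49 Krt18 UMIs, which encode the keratins of simple epithelia, and 8 to 40 UMIs of Nrk, a kinase gene of the placenta. Pou5f1, which encodes the core pluripotency factor Oct4, was at 0 or 1 UMI, no Dppa2, Dppa3 or Dppa4 UMI was seen, and Dppa5a had 0 to 2. Rhox5 (3 to 13 UMIs) and Trap1a (0 to 11) were present. The 8th cell, in the library labelled double knockout, had 14 Dppa3, 5 Rhox6, 7 Rhox9, 4 Dppa4 and 5 Pou5f1 UMIs and no Krt8 or Krt18. These genes other than the 8 were picked after their values were seen.

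Of the fixed list of 6 trophoblast markers, 4 were detected in the 8 cells at a summed 456.6 CPM, against 1 of 6 at 0.883 CPM in the other 127 naive-like cells. Krt7, in 6 of the 8 cells, made up most of that sum, while Gcm1 and Hand1 were at 0, and Elf5 was seen in 1 cell. The naive list summed to 351.2 CPM in the 8 cells and to 1909 CPM in the other 127. Zfp42 was at 23.4 and 449.5 CPM in these groups. Other lists also differed: 2 of 10 extraembryonic endoderm markers were detected in the 8 cells at a summed 714.2 CPM, against 4 of 10 at 54.7 CPM in the 127. Their part in the Rhox levels was not tested. Since the cells were picked by their Rhox counts and are few, no cell type is named for them. The doublet score removed none of the 8.

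**Figure D3:**
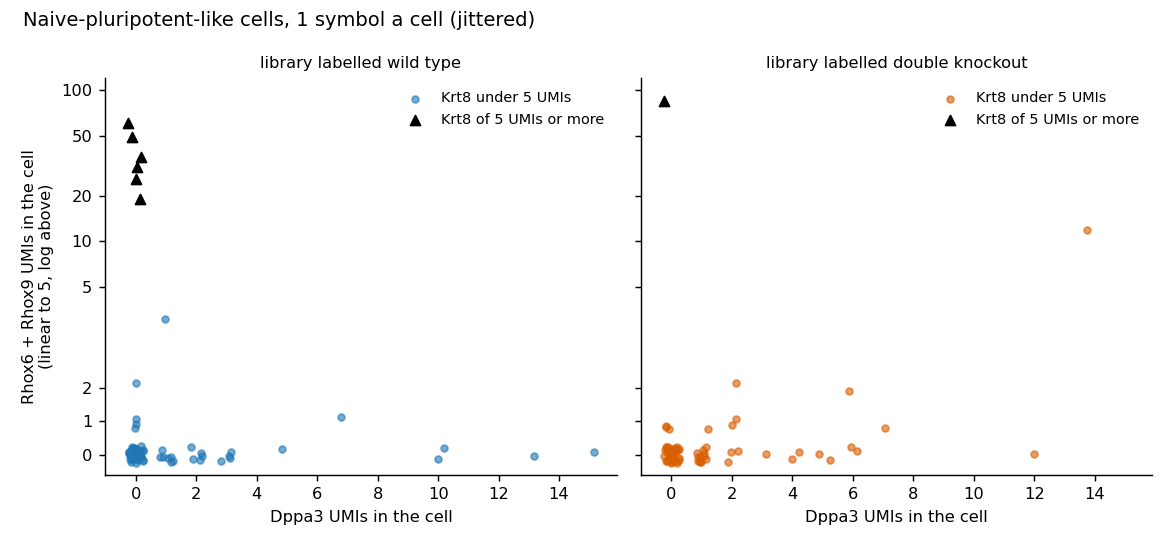
UMIs of Dppa3 (x axis) and of Rhox6 and Rhox9 together (y axis, linear to 5 and logarithmic above) in each of the 67 and 68 naive-pluripotent-like cells, with small random shifts; black triangles are cells with 5 or more Krt8 UMIs. The 7 triangles lie between 19 and 85 Rhox UMIs with no Dppa3, while Dppa3 runs up to 15 UMIs in cells that are low in Rhox6 and Rhox9, except for 1 cell with both.

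Among the other 127 naive-like cells, 52 carried Dppa3 and 75 did not, with median depths of 8792 and 8317 UMIs. Dppa5a and Trap1a were found in most cells of both kinds: Dppa5a was in 49 of 52 and 74 of 75 cells and Trap1a in 38 of 52 and 62 of 75. Dppa4 was lower in cells with Dppa3, by log2 ratios of -0.68 (-1.45 to 0.03) and -0.27 (-0.93 to 0.36) in the 2 libraries. Dppa2 was higher, by 0.40 (-0.65 to 1.43) and 0.70 (-0.18 to 1.61), and all 4 intervals spanned 0. Rhox5 was in 20 of 52 and 22 of 75 cells. Its level was 428.8 CPM in cells with Dppa3 and 302.0 CPM in cells without in the library labelled wild type (log2 ratio 0.51, 0.09 to 0.92), and 325.7 and 68.6 CPM in the library labelled double knockout (2.22, 1.55 to 3.00). The direction was the same in both libraries. These Rhox5 UMIs came from 10 and 14 cells of the first library and 10 and 8 of the second, so the intervals, which treat UMIs as independent, are too narrow. In the first library depth differed as well, with medians of 9962 UMIs in cells with Dppa3 and 8007 in cells without. Its part in the result was not tested. In the second library the naive markers Zfp42, Klf2 and Tdh, picked after their values were seen, were also higher with Dppa3. Their log2 ratios were 0.59 (0.18 to 1.00), 0.74 (0.36 to 1.13) and 0.47 (0.14 to 0.79), against 0.06, -0.14 and -0.13 in the first. Nanog (-0.13) and Fgf4 (-0.29), among others, went the other way in the second. The part of these markers in the Rhox5 difference was not tested.

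Germ cell and primed genes, picked here after their values were seen, were compared in the same cells. Ifitm3, a gene of early germ cells and of naive cells, was higher in Dppa3-carrying cells by log2 ratios of 1.19 (0.42 to 2.02) and 0.89 (-0.25 to 2.104). Tfap2c, a germ cell and naive factor, differed between the libraries, at -0.31 (-2.30 to 1.36) and 3.77 (1.61 to 9.71). Zic2, a primed factor, had ratios of -0.34 (-1.65 to 0.82) and -1.62 (-3.28 to -0.40). Otx2, also a primed factor, had 0.03 (-1.01 to 1.01) and -1.49 (-2.59 to -0.60). The lists were mixed: the primed gene Lef1 had ratios of 0.21 and 0.67 and Dnmt3b of 0.37 and -0.22. Their intervals spanned 0. Sox3, at 3 UMIs in either kind of cell of the first library and 1 in the second, was too sparse to compare. The primed genes Pou3f1 and Tead2 had -0.27 (-1.10 to 0.49) and 0.34 (-0.64 to 1.30) in the first library. In the second they had -1.61 (-2.70 to -0.73) and -1.97 (-3.81 to -0.69). Of the germ cell genes, Kit had -1.40 and 2.72, from 1 and 5 UMIs in cells with and without Dppa3, then 7 and 1. Prdm1 had -0.37 and 4.31, from 2 and 4 UMIs, then 7 and 0. Such counts are near the floor. The difference between the libraries was not tested for these genes.

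Cluster 1 was the main source of the widely detected genes. It makes up 29.5% and 45.9% of cells. With the wild-type label it held 48.0% to 65.2% of the UMIs of these 5 genes, and with the double-knockout label 59.9% to 75.6%. Over all other cells, the log2 ratio was 1.98 (1.90 to 2.07) and 1.72 (1.63 to 1.81) for Rhox5 and 1.41 and 1.18 for Dppa5a. It was 1.101 and 1.25 for Dppa2, 1.02 and 1.25 for Dppa4, and 0.96 and 0.67 for Trap1a. So 4 genes were at least 2-fold higher in cluster 1 in both libraries, against 0.951% and 0.874% of all genes. The cluster is described because it held the most UMIs of these genes, and Rhox5 leads it, so nothing is read from that comparison. Dppa3, at 2.50 and 2.75 CPM in cluster 1, was not among the 4. Rhox6 had log2 ratios of -1.74 and -1.56 and Rhox9 of -1.51 and -0.53, with the naive-like cells among the others; 1.29% and 0.907% of all genes were at least 2-fold lower.

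Germline genes known to be silenced by promoter methylation were compared beside them. Of 17 such genes listed, 7 had a mean of at least 1 CPM. In cluster 1, 3 of the 7 were at least 2-fold higher in each library, against 0.951% and 0.874% of all genes, with medians of 0.78 and 0.85 on the log2 scale against -0.02 for all genes. Tex19.1 and Stk31 were among the 3 in both libraries, Syce1 with the wild-type label alone and Rpl10l with the double-knockout label alone. These genes were named after their values were seen. Sycp3, a protein of the meiotic chromosome axis, was not among them. It was at 34.4 and 29.3 CPM in cluster 1 and at 20.04 and 16.2 CPM in the others. In naive-like cells 3 and 4 of the 7 were at least 2-fold higher and 0 and 2 at least 2-fold lower, against 10.1% and 10.6% of all genes higher and 11.6% and 12% lower. Tex19.1, named after its values were seen, was at 99.5 and 101.0 CPM there against 8.60 and 8.32 CPM elsewhere. Tdrkh, a piRNA pathway gene, was at 4.74 and 3.42 CPM against 10.6 and 10.9 CPM, and the intervals of both ratios spanned 0. The naive-like cells here include the 8 Rhox-rich cells. The 17 genes summed to 643.9 CPM in these 8 and to 180.1 CPM in the other 127. The part of the 8 cells in the naive-like values was not tested.

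Of 21 genes of the machinery that adds, removes or reads these marks, 0 differed between the libraries by a log2 ratio of 0.25 or more, against 5.7% of all genes higher and 8.89% lower. In naive-like cells 3 and 3 of the 21 were at least 2-fold higher and 2 and 0 at least 2-fold lower, which is near the shares over all genes of 10.1% and 10.6% higher and 11.6% and 12% lower. Tet1, which oxidises methylated cytosine, was there at 198.9 and 195.1 CPM against 75.5 and 70.5 CPM in other cells. Dnmt3b, a writer of new methylation, was at 350.5 and 509.9 CPM against 726.2 and 771.5 CPM. Dnmt3l, its cofactor, named after its values were seen, went the other way, at 112.1 and 138.6 CPM against 3.36 and 3.48 CPM. In cluster 1, which kept Rhox5 and Dppa5a, Dnmt3b was at 916.3 and 927.9 CPM against 632.7 and 621.8 CPM in the other cells.

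The remaining family members were close to absent. The matrices list 32 other genes whose symbol starts with Dppa or Rhox and a number, of which 20 had no UMI in any kept cell and 0 reached a mean of 1 CPM. The highest was Rhox13, at a mean of 0.775 CPM.

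Between the libraries, the widely detected genes had nearly the same level over all cells. Dppa5a was at 132.6 CPM in both (12886 and 12950 UMIs; log2 ratio -0.00, -0.04 to 0.04). Dppa4 was at 25.6 and 27.0 CPM (0.08, -0.00 to 0.16), Dppa2 at 9.97 and 9.45 CPM (-0.08, -0.21 to 0.05), Trap1a at 28.1 and 28.3 CPM (0.01, -0.07 to 0.08) and Rhox5 at 52.3 and 55.2 CPM (0.08, 0.02 to 0.13). These ratios are all under 0.25 in size.

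The 3 rare transcripts passed that size. Dppa3 was higher in the library labelled double knockout, at 1.96 and 2.57 CPM (log2 ratio 0.39, 0.12 to 0.67). The empty barcodes of that library also held more of it (2.53 and 5.90 CPM), and their part in the difference was not tested. With equal cluster shares, as described further on, the ratio of Dppa3 was 0.22, under the limit, and without the naive-like cells it was 0.61. Rhox6 was lower there, at 1.94 and 1.20 CPM (-0.69, -1.04 to -0.35), and so was Rhox9, at 1.26 and 0.86 CPM (-0.54, -0.96 to -0.13). That is 1 of 8 genes higher against 5.7% of all 12406 genes with a mean of at least 1 CPM, and 2 of 8 lower against 8.89%. Without the 8 cells rich in Rhox6 and Rhox9, the ratio of Rhox6 was 0.039 and that of Rhox9 was 0.57, so the lower values rest on 6 and 2 cells.

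The summed level of Dppa3 was lower in cells with a low share of UMIs from chromosome 6, which carries it. In these low cells, 21.1% and 18.2% of cells, chromosome 6 genes made up 0.8 times the median share of UMIs or less. They had 0.424 (0.18 to 0.83) and 1.59 (1.05 to 2.31) CPM of Dppa3. The other cells had 2.33 (2.00 to 2.69) and 2.78 (2.43 to 3.17) CPM, with intervals that overlap between the libraries. The share of thinned cells with Dppa3 did not move alike. It was 0.272% and 0.571% in the low cells and 0.510% and 0.462% in the others. Each library had 9 naive-like cells among the low cells. The low cells also differ in cell group. In cluster 4 the median chromosome 6 share was 0.759 and 0.893 times that of all cells, and in cluster 1 it was 1.010 and 1.012 times. Dppa3 was at 0.313 and 0.427 CPM in cluster 4 and at 2.50 and 2.75 CPM in cluster 1. The part of cell group in the lower level was not tested. Among the other cells alone the log2 ratio between the libraries was 0.26, against 0.39 over all cells.

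Equal totals of Dppa5a in the 2 libraries went with differences inside the clusters. In cluster 1 its log2 ratio was -0.30 (-0.35 to -0.26) and in cluster 2 it was -0.42 (-0.53 to -0.32), while in cluster 4 it was 0.77 (0.65 to 0.89). Rhox5 had the same signs, with -0.30 (-0.37 to -0.23), -0.19 (-0.35 to -0.04) and 0.88 (0.46 to 1.29). Trap1a was lower in cluster 1 (-0.26, -0.37 to -0.16) and not lower in cluster 2 (0.18, 0.00 to 0.35). Dppa4 was level in cluster 1 (-0.02, -0.13 to 0.08). The Dppa5a-rich cluster 1 is a larger share of the library labelled double knockout. With each cluster weighted alike in both libraries, a comparison added after seeing the data, the ratio was -0.14 for Dppa5a and Trap1a and -0.25 for Rhox5.

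**Figure D4:**
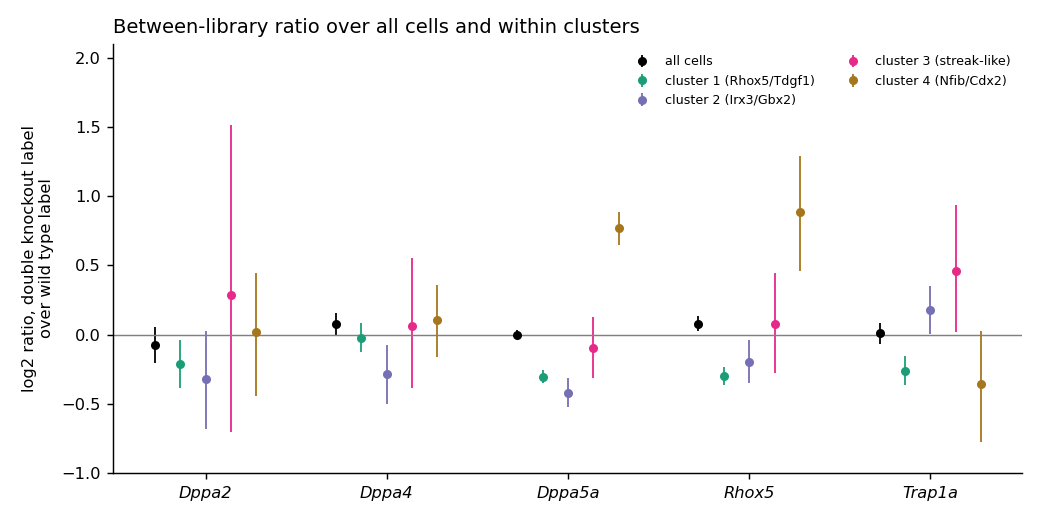
Log2 ratio of each widely detected gene (library labelled double knockout over library labelled wild type) over all cells (black) and within the 4 clusters of the most cells (colours), with exact 95% intervals. Dppa5a and Rhox5 lie near 0 over all cells, below 0 in clusters 1 and 2 and above 0 in cluster 4.

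Co-occurrence in single cells was measured as cells with UMIs of both genes over the number that independence of the 2 genes would give, in cells thinned to 2500 UMIs. Of the 28 pairs, 11 were expected in 5 cells or more in each library, and all 11 occurred together more often than that number. The interval lay above 1 for 11 and 10 of them. The median ratio was 1.84 and 1.77. Dppa5a and Rhox5 met in 228 cells against 123.7 expected (1.84, 1.61 to 2.098) and in 293 against 165.2 (1.77, 1.58 to 1.99).

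The neighbours Dppa2 and Dppa4 met in 23 cells against 13.2 expected (1.74, 1.103 to 2.61) and in 28 against 16.1 (1.74, 1.16 to 2.52). These ratios are close to the median of the 11 pairs. Dppa3 met Dppa5a in 30 cells against 8.36 (3.59, 2.42 to 5.12) and in 31 against 10.8 (2.86, 1.95 to 4.06), the highest ratio among the 11 pairs in both libraries. Rhox6 and Rhox9 met in 6 and 2 cells, where independence gives 0.0207 and 0.0258. Dppa3 and Rhox6 met in 0 cells of the library labelled wild type and in 4 of the library labelled double knockout.

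The ratios were nearer to 1 inside cell groups. When the expected number was taken within each cluster, the median ratio was 1.30 and 1.26, with an interval above 1 for 7 of 16 pairs in each library. Within finer clusters it was 1.16 and 1.14, with an interval above 1 for 3 of 17 and 3 of 16 pairs. These counts are over 16 or 17 pairs and not the 11 above. The shares, and possibly the medians, are therefore over another set of pairs. Leaving out the naive-like cells, by contrast, left median ratios of 1.82 and 1.73. Thinned cells with 3 or more of the 8 genes numbered 145 and 162 against 34.9 and 44.1 expected, and cells with 4 or more numbered 22 and 21 against 1.23 and 1.56. Of the latter, 11 and 7 were naive-like, and 10 and 12 lay in cluster 1.

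**Figure D5:**
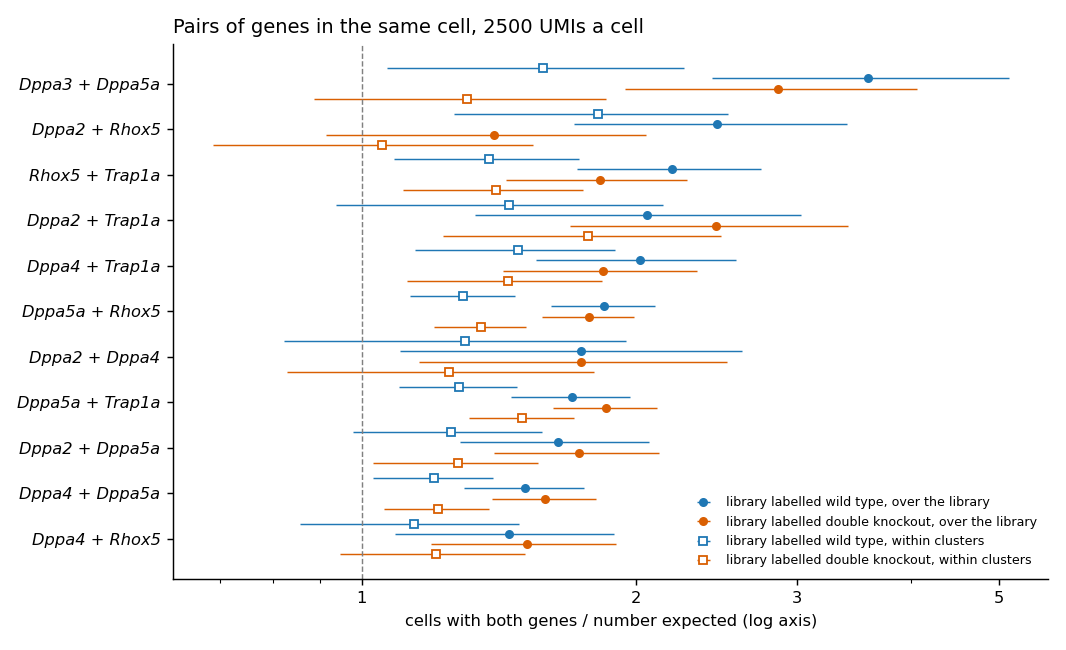
Cells with both genes of a pair divided by the number expected, on a log axis with exact 95% intervals, for the 11 pairs expected in 5 cells or more; filled circles take the expected number over the library and open squares within clusters (blue, library labelled wild type; orange, library labelled double knockout). All filled symbols lie above 1, with Dppa3 and Dppa5a highest, and the open squares are nearer to 1.

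Likeness of pattern was taken as Pearson's r of log2(CPM + 1) over 28 fine groups of cells, and the lower of the 2 libraries' values ranked the genes. These points share their library and its depth, and groups with naive-like cells weigh heavily, so r is a description. Dppa2 and Dppa4 had an r of 0.95 and 0.90, and Dppa4 was the most similar of 7607 genes to Dppa2. Rhox6 and Rhox9 had 0.96 and 0.95, and Dppa5a and Trap1a only 0.50 and 0.43. Zfp42, a zinc finger gene used as a marker of naive cells, ranked highest for Dppa3, Dppa4, Rhox6 and Rhox9 (lower r of 0.81, 0.84, 0.84 and 0.83), among genes with a mean of at least 10 CPM. For Rhox6 and Rhox9 these groups mix the 8 Rhox-rich cells with naive-like ones, and in the 8 cells themselves Zfp42 was at only 23.4 CPM.

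The other lists differed by gene. Nearest to Dppa5a were Smim40 (lower r 0.89), Etv5 (0.84), Syce2 (0.84), Pdk1 (0.83) and Tdh (0.83), the last encoding threonine dehydrogenase of naive cells. Rhox5 was followed by Lyrm9 (0.73), Pla2g1b (0.73), Slc9b1 (0.71), Psme2 (0.70) and Tdrd12 (0.69), a piRNA pathway gene. Trap1a was followed by Dppa4 (0.82), Cdkn1c (0.82), which encodes a cell cycle inhibitor, Trim13 (0.80), Zfp42 (0.80) and Gab1 (0.79).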

How the data were processed

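Per the labels and the matrices, the values deposited by the authors are raw UMI counts for every barcode, unfiltered. The labels name 10x 3′ V3.1 libraries and Cell Ranger 8.0.1; the submitters' processing notes list STARsolo, STAR 2.7.9a, Seurat 5.1.0 and mm10. Barcodes with at least 2500 UMIs, at least 1000 genes and at most 10% mitochondrial UMIs were kept. Doublets were kept; removing the highest Scrublet scores (606 and 897 cells, scanpy 1.11.5) was an alternative, as were TMM factors (edgeR 4.0.16). Sums carry exact Poisson, ratios (pseudocount 0.5) exact conditional and shares Clopper-Pearson intervals. Between libraries a log2 ratio of 0.25 counted as a difference; between cells, 1. Leiden clustering used 2000 variable genes, 30 components, 15 neighbours and a resolution of 0.5 (2.0 for fine groups). Clusters were named from fixed markers by a scoring rule set after they were seen. The code was tested on simulated data. Named genes are the 8, at most 3 a list with the largest ratio at 10 CPM or more, and at most 5 similar genes each; others are marked. Genes and lists were chosen with earlier results of these data known.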

Additional observations from a re-analysis of the deposited data

How the results depend on the processing

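No paired analysis was possible because each genotype has 1 library. TMM and median-of-ratios scaling moved all ratios by 0.03 and 0.02 on the log2 scale. With either, with a minimum of 5000 UMIs, with a mitochondrial limit of 5% or without doublets, 3 of the 8 ratios passed 0.25 in size. Dppa4, Dppa5a and Trap1a lie so near 0 that their signs changed between settings, with all values under 0.25 in size. Apart from these, signs turned in 4 cases. With equal cluster shares Rhox5 was at -0.25 and Dppa3, at 0.22, no longer passed 0.25; without the naive-like cluster Rhox9 was at 0.73; and without the 8 cells rich in Rhox6 and Rhox9, Rhox6 was at 0.039 and Rhox9 at 0.57. The 8 cells hold 222 of 310 and 97 of 201 UMIs of Rhox6 and Rhox9. The naive-like cluster holds 79.5% and 50.0% of the Rhox9 UMIs. For Rhox5 the cause was not tested.

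Counts over all genes depended on the minimum level. With no minimum, 4131 genes were higher and 5003 lower between libraries, and 9154 and 9272 genes were 2-fold higher in naive-like cells; at 10 CPM these were 238, 355, 271 and 255. All 8 genes were 2-fold higher in naive-like cells at a resolution of 1.0, without doublets and in cells picked by 4 or more naive markers, although 11 of the 16 ratios in the last setting moved, Dppa3 to 5.17 and 5.90, Rhox6 to 3.62 and 4.16 and Rhox9 to 2.34 and 3.01. Without the 8 cells it was 8 and 7, since Rhox9 had 0 UMIs there. Dppa3, Rhox6 and Rhox9 rest on 84 to 251 UMIs a library.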
